A study of Oncorhynchus mykiss with 16 samples.

Results

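The array probes described here are those whose signal was highest at day 3 of rainbow trout preadipocyte culture, was lower by day 8 and then stayed near its new level to day 21. They were taken from the table of log2 values deposited by the authors. A probe entered when it was well above background on the 4 arrays of day 3 and when its mean at day 8 lay within 0.5 of the mean of days 15 and 21 on the log2 scale. For each of the 4 cultures a score was then formed, day 3 minus the highest of days 8, 15 and 21, and the 200 probes with the highest minimum score were taken. These are 200 of 60195 probes, and 27822 probes met the conditions that come before the ranking. The members were thus chosen by their measured values of all 4 days. The fall from day 3 and the level course after day 8 come from that choice and are given as a description with no test.

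Cells were isolated by collagenase digestion from the visceral fat of Oncorhynchus mykiss, with 1 pool of 6 to 7 fish for each culture, numbered 4, 8, 9 and 10 in the labels. Red blood cells were lysed before plating. The cells were grown in serum-containing medium until confluence at day 8, and from then on in the same medium with insulin, IBMX, dexamethasone and a lipid mixture. The methods of the study call the cells mesenchymal stem cells at day 3 and proliferated cells at day 8. They call them committed preadipocytes at day 15 and mature adipocytes at day 21. No culture without the differentiation mixture was given. Each culture gave 1 array per day, so n = 4 at each day. Days 3 and 8 hence share the growth medium and differ in time and cell density, whereas days 15 and 21 share the differentiation medium.

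Adipose tissue freed by collagenase yields, besides fat cells, a mixed fraction of fibroblast-like precursors, blood cells and cells of vessels. When this fraction is plated, precursors attach, spread and divide until they meet. In mammals, precursors that stop dividing at confluence can be driven into fat cells by insulin, a glucocorticoid and an agent that raises cyclic AMP. In RNA from whole cultures, fewer cells of a type and less RNA per cell cannot be told apart.

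None of the 200 members had a readable gene name in the files, and none matched an accession in the RefSeq gene table for the assembly USDA_OmykA_1.1. The members carried 118 contig identifiers beginning with TC, 51 identifiers of single sequence reads and 31 identifiers in the form of sequence accessions, and they are called by these identifiers. Of the markers listed for erythrocytes, leukocytes, thrombocytes, endothelial, mesothelial, fibroblast and fat cells, PPARg was the only one with a readable name on the array, and 0 of 16 arrays showed its probe well above background. The cell types named in the methods of the study could not be checked further in this way, nor could functions be given to the members.

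The 16 arrays lay on 2 slides and had between 65.5% and 80.5% of their spots well above background. Levels are given as log2 of the processed signal relative to the 75th percentile of the array, and on this scale the lowest signals that counted as well above background lay between -5.93 and -4.63. Of the 200 members, 198 had a value on every array and were tested with the other probes, 42541 in all. The other members, FYV3OTN01CPIQQ and TC126014, lost a value to an outlier spot and were left out of tests.

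The median member fell by 1.94 ± 0.19 (SD between cultures, n = 4) on the log2 scale from day 3 to day 8, a ratio of 3.85, where the median of all tested probes moved by -0.05. The median falls in cultures 4, 8, 9 and 10 were -1.67, -1.96, -2.07 and -2.05. Among members well above background on all arrays, single changes ran from -5.01 to -0.92, and the ratio of day 3 to day 8 from 1.90 to 32.2. The later change, days 15 and 21 together against day 8, had a median of -0.22 ± 0.16. In it 153 of 198 members moved further down, beside 22159 of 42541 tested probes. The rule limits the size of this change, so nothing is read from the difference. From day 15 to day 21 the median change was -0.02 ± 0.08, with 102 of 199 members lower and 97 higher. Among the 42541 tested probes 23271 were lower and 19270 higher.

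The level of the members at day 3 is a description, as the rule required them to be well above background on that day. Tested probes needed this only on the arrays of at least 1 day. At day 3 the median member lay at -0.74 on the log2 scale, above 55.6% of the tested probes. Of the members, 13 belonged to the brightest 10% of the tested probes. The brightest was TC104212, which was at 5.92 ± 0.58 (SD, n = 4) on day 3 and at 4.80 ± 0.61 on day 8. It then reached 4.59 ± 0.92 by day 15 and 4.30 ± 0.93 by day 21. It was chosen for mention after its values were seen.

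In 172 of the 198 tested members the lowest of the 4 values of day 3 was above the highest of the 12 later values. This held for 6.72% of all tested probes, but the rule used the same contrast and nothing is read from the difference.

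Most members were reduced rather than lost. Of the 200 members, 126 stayed well above background on each of the 16 arrays, 56 on some of the 12 later arrays, and 18 on none of them. Among all 42541 tested probes, 35803 were well above background on each array, beside 124 of the 198 tested members. The 126 had a median of 0.63 at day 3 and of -1.66 at day 8, then of -1.88 on day 15 and -1.82 on day 21. The 18 probes seen at day 3 alone started from a lower level, with medians of -3.38 at day 3 and -7.32 at day 8. They held 11 of the 20 highest scores, and their lowest rank was 54.

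**Figure D1:**
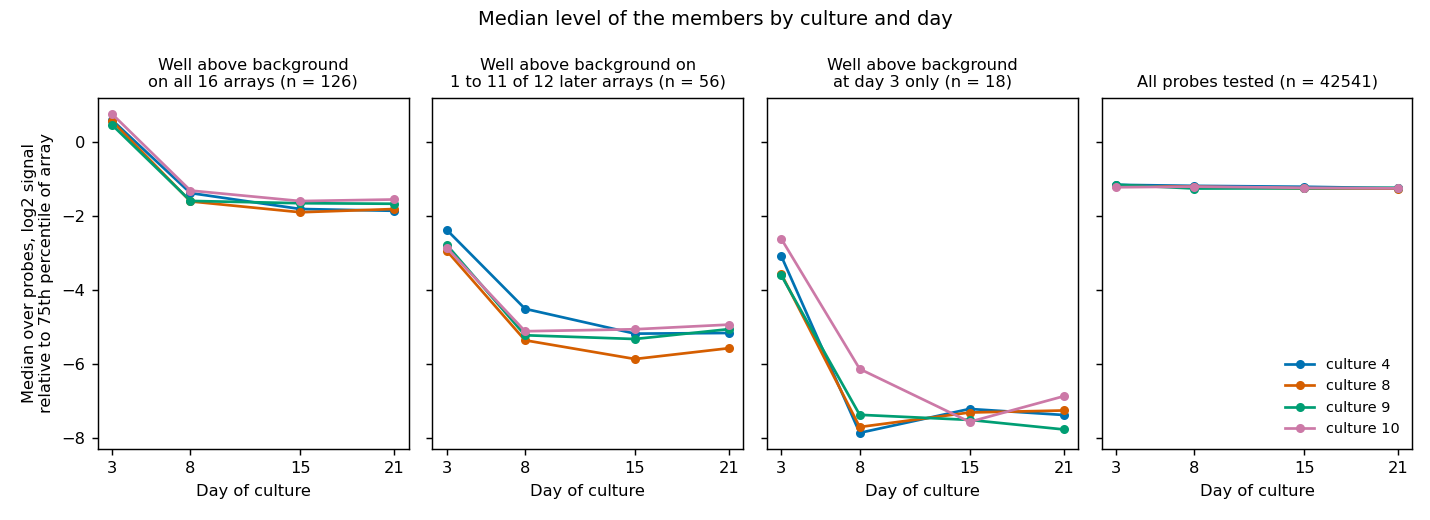
Median log2 signal relative to the 75th percentile of the array (vertical axis) against day of culture for the 3 groups of members and for all tested probes, with 1 line per culture. Members seen on all arrays fell from a median of 0.63 to -1.66 by day 8, the 18 seen at day 3 alone fell to -7.32, and the median of all tested probes stayed near -1.2.

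For members well above background on none of the 4 arrays of a later day, the fall is known only as a bound. The bound compares the mean of day 3 with the lowest signal well above background on each later array, or with the probe's own signal where that was higher. There were 20 such members at day 8, with day 3 higher by at least 2.46-fold to at least 11.9-fold. At day 15 there were 35, with bounds from 2.06-fold to 44.1-fold, and at day 21 there were 30, with bounds from 2.03-fold to 43.1-fold.

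TC108061 had the highest score of all members, 5.01. At day 3 its log2 level was 0.06, -0.45, 1.31 and -0.29 in cultures 4, 8, 9 and 10, and at day 8 it was -6.54, -7.59, -4.75 and -5.28. Only the array of culture 9 was still well above background at day 8, and no array was at day 15 or 21. No ratio is given for day 8, where 3 of the 4 arrays were not well above background. The level at day 15 was lower than at day 3 by at least 44.1-fold.

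Next in score were 4 contigs that were seen at day 3 alone, TC101890, TC118193, TC102244 and TC101769. TC101890 had log2 levels of -2.11, -3.07, -2.61 and -1.01 at day 3 in cultures 4, 8, 9 and 10 and was at -8.05, -7.77, -7.52 and -5.84 at day 8. TC118193 had -1.56, -3.22, -2.23 and -0.71 at day 3 and -8.04, -7.75, -7.49 and -5.42 at day 8. In both, culture 10 was the highest and culture 8 the lowest at day 3. TC118193 was at least 11.9-fold higher at day 3 than at day 8, TC101890 at least 9.84-fold, TC101769 at least 8.74-fold and TC102244 at least 8.38-fold.

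The 2 members with the next scores, TC131021 and TC118715, were bright and remained measurable on all 16 arrays. The log2 level of TC131021 in cultures 4, 8, 9 and 10 was 4.12, 3.28, 3.09 and 4.68 at day 3 and -2.47, -1.22, -1.43 and 1.11 at day 8. By day 15 it was -2.21, -0.75, -0.998 and 0.04, and by day 21 -2.34, -1.47, -2.15 and -1.35. Its ratio of day 3 to day 8 was 27.7, and culture 10 was the highest on each day. TC118715 went from 4.59, 4.29, 3.48 and 5.33 at day 3 to -1.23, -0.36, -0.51 and 1.76 at day 8, a ratio of 22.7. TC131021 was lower than TC118715 by 0.79 on average, and this difference had an SD of 0.22 over the 16 arrays.

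Another bright member, CU069380, was at 3.22, 1.67, 2.99 and 3.60 at day 3 in cultures 4, 8, 9 and 10, and at -2.61, -3.26, -2.18 and -0.51 at day 8. The cultures did not stay in one order afterwards. Culture 10 was the highest at day 8 but, with -2.95 at day 15 and -2.46 at day 21, the lowest on the later days, whereas culture 4 rose to -1.15 and -1.10. Its ratio of day 3 to day 8 was 32.2, the largest among the members measured on all 16 arrays.

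Smaller but more even falls were found in TC98689 and TC121610. TC98689 was at 0.35, -0.40, -0.04 and -0.43 at day 3 in cultures 4, 8, 9 and 10 and at -2.34, -2.39, -2.76 and -2.41 at day 8, a ratio of 5.08. TC121610 was at 2.60, 3.29, 2.68 and 2.54 at day 3 and at -0.00, -0.14, 0.06 and 0.21 at day 8, a ratio of 6.70. Its cultures spread apart later, and at day 21 they lay at 0.65, -0.66, -1.60 and -0.33. TC95590, another member measured on all arrays, fell by 3.11 from day 3 to day 8.

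**Figure D2:**
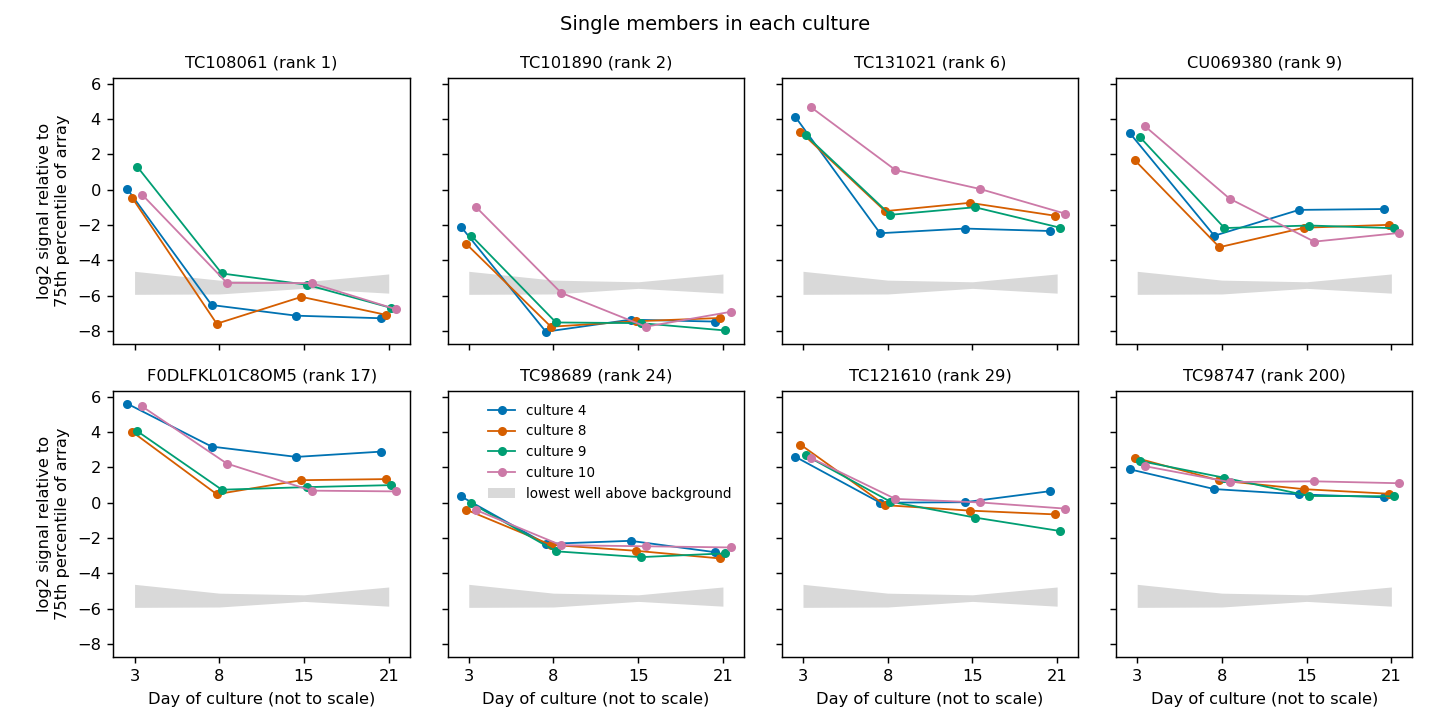
Log2 signal relative to the 75th percentile of the array for 8 members in each culture at days 3, 8, 15 and 21, with the grey band giving the range over the 4 arrays of a day of the lowest signal well above background. TC101890 fell into or below the band by day 8 and TC108061 did so except in culture 9 at day 8, while TC131021, CU069380 and the other members shown stayed above it.

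The score changed little around the limit of the choice. The last members inside were TC103454, TC121376 and TC98747, with minimum scores of 0.778, 0.778 and 0.777 on the deposited log2 scale, and the first probes outside were TC127127, TC99127 and TC101730, with 0.776, 0.775 and 0.775. TC98747 had levels of 1.89, 2.55, 2.36 and 2.07 at day 3 in cultures 4, 8, 9 and 10 and 0.77, 1.26, 1.41 and 1.17 at day 8. Its ratio of day 3 to day 8 was 2.10, so the set passes without a gap into probes with smaller falls.

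A run of identifiers stood out among the members and was singled out after the values were seen. The array has 7 probes whose identifiers begin with X81 and differ in the last digits, and 4 of these, X81493, X81488, X81501 and X81484, were members with ranks 8, 10, 14 and 20. All 4 were well above background on the 4 arrays of day 3 and on none of the 12 later arrays. X81493 was at -3.37, -2.91, -3.68 and -2.57 at day 3 in cultures 4, 8, 9 and 10, and X81488 at -2.96, -3.82, -3.34 and -2.21. X81501 was at -3.21, -4.26, -3.64 and -2.53, and X81484 at -3.49, -3.26, -4.76 and -2.67. Culture 10 was the highest at day 3 in 4 of 4 of these members. It was so in 9 of the 18 members seen at day 3 alone and in 62 of all 200, and whether this run differs was not tested. The order of the cultures is not read on the later days, when no array passed the limit. Their levels at day 3 were at least 5.34-fold above day 8 for X81488 and at least 5.16-fold for X81493.

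The other 3 probes of this run had different courses. X81485 was far brighter, with 5.74, 5.30, 4.59 and 6.31 at day 3, and fell in both steps, to -3.31, -4.48, -1.52 and 2.68 at day 8 and to -7.43, -7.54, -7.61 and -5.68 at day 15, where no array was well above background. X81490 remained measurable on 16 of 16 arrays and was at -0.84, -1.08, -1.32 and -0.95 at day 3. It fell by 2.21 to day 8, but the cultures then ranged from -4.43 in culture 4 to -0.26 in culture 10 at day 21. X81510 was well above background on 0 of 16 arrays. Whether the probes of this run share sequence could not be read from the files, which give no probe sequences.

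**Figure D3:**
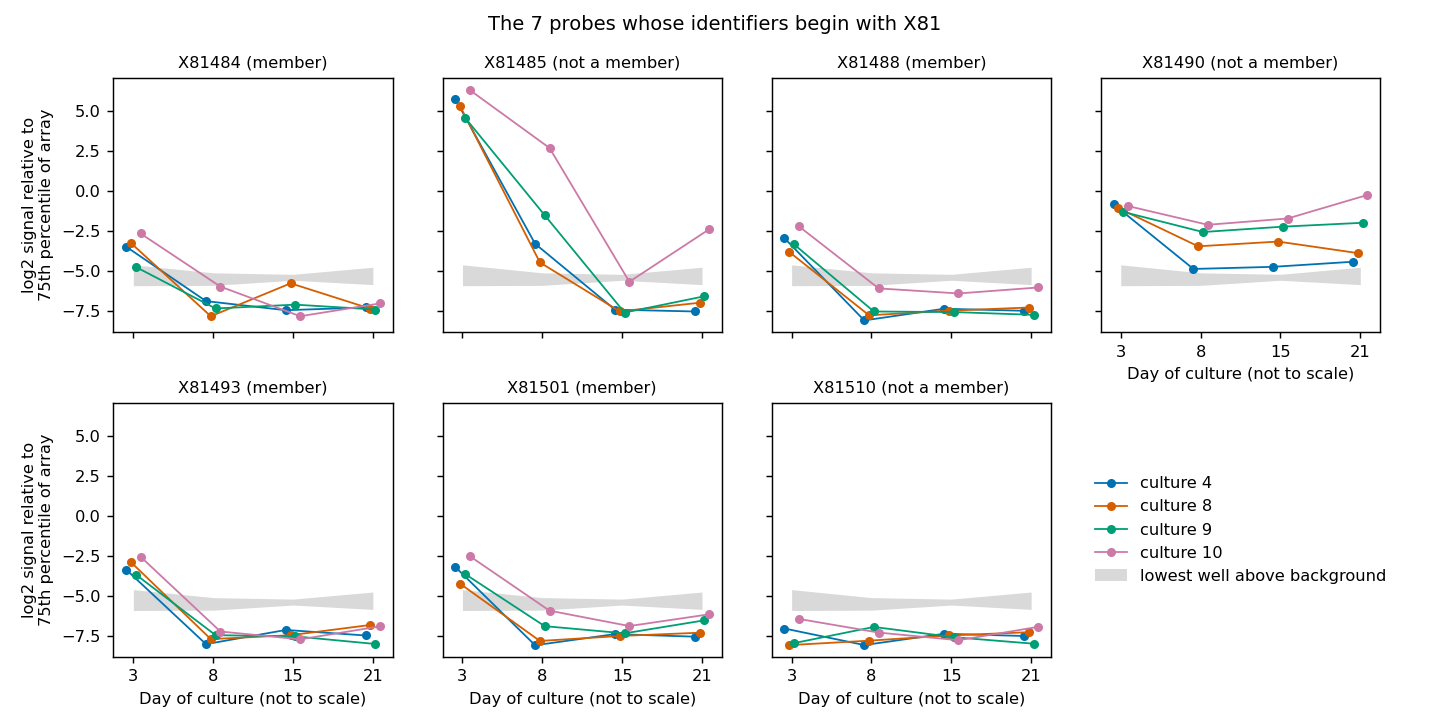
Log2 signal relative to the 75th percentile of the array for the 7 probes whose identifiers begin with X81, in each culture at days 3, 8, 15 and 21, with the grey band as the range of the lowest signal well above background. The 4 members dropped to or below the lower edge of the band by day 8, and X81485 dropped in both steps to day 15. X81490 stayed measurable, and X81510 was not well above background on any array.

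Members came from contigs, single reads and accessions, and none came from the 2 probes with other names that met the conditions. Of the probes that met the conditions before the ranking, 0.719% were members, against 0.76% of contigs, 0.605% of single reads and 0.803% of accessions. Among the sequencing runs named in the read identifiers, FYV3OTN01 gave the most members, 13, or 0.67% of its probes that met the conditions. The runs F0DLFKL01 and F6VG15V01 gave 8 each, 1.57% and 1.90%, and the highest share, 5%, was 1 of 20 probes from GB5RBPX02. Culture 4 had the highest mean over the 4 days in 7 of the 8 members from F0DLFKL01. Over all members the counts were made by single days, which is a different measure. By these, culture 4 was the highest in 68 of 200 at day 3 and 92 of 199 at day 8. At day 15 it was the highest in 79 of 199 and at day 21 in 52 of 200. The 7 of 8 cannot be set directly against these counts, and whether this run differs was not tested. The brightest of the 8, F0DLFKL01C8OM5, was at 5.61, 4.02, 4.06 and 5.45 at day 3 in cultures 4, 8, 9 and 10, and at 3.18, 0.48, 0.73 and 2.21 at day 8. F0DLFKL01CB8CM followed it with a mean difference of 0.07 and an SD of 0.14 over the 16 arrays.

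Such pairs of members, which differed by nearly a constant, were counted among the 124 tested members measured on all arrays. In 20 of 7626 pairs the SD of the difference over the 16 arrays was below 0.2, and 21 members took part in them. The closest were FYV3OTN01DBP0O and FYV3OTN01BIWDE, with an SD of 0.07, 2 reads of the same run. Members had been chosen for a shared time course, and whether such pairs share a transcript was not tested. Counts of members are counts of probes.

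Because each culture had entered the choice, the rule was also applied to 3 cultures at a time and its probes were read in the culture that had been left out, a step chosen after the values were seen. With culture 4 left out, 194 of the 200 probes so chosen had a day 3 value above all later values in culture 4, with a median score of 1.17. The numbers were 190 of 200 with 1.48 in culture 8, 187 with 1.23 in culture 9 and 170 with 1.27 in culture 10. Among all probes that met the conditions in the other 3 cultures, the share was 31.2% in culture 4, 37.2% in culture 8, 34.7% in culture 9 and 36.8% in culture 10. In each culture left out, most of the probes so chosen were thus highest at day 3, whereas 30 of the 200 were not in culture 10. In cultures 8, 9 and 10 the day 3 arrays lay on slide 1 and the day 8 arrays on slide 2. In culture 4 it was the other way round. What the slides added to these numbers was not tested.

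The level course after day 8 carried over less evenly. In the culture left out, the mean of days 15 and 21 was within 0.5 of day 8 for 68 of 200 probes in culture 4, and for 118, 122 and 116 in cultures 8, 9 and 10. In culture 4 the median of these probes fell by 1.23 to day 8 and by another 0.61 afterwards, against later changes of -0.17, -0.18 and -0.07 in cultures 8, 9 and 10. The members themselves showed the same difference, with a median change after day 8 of -0.46 in culture 4, -0.23 in culture 8, -0.13 in culture 9 and -0.12 in culture 10.

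On the arrays of days 3 and 8 alone, slide and culture cannot be told apart in this difference. Culture 4 had the only day 8 array on slide 1 and the only day 3 array on slide 2. Days 15 and 21 each had 2 arrays on each slide, but no slide term was fitted to this difference. Within slide 1, 3 arrays of day 3 stood against 1 array of day 8 from another culture, and the median member changed by -1.52. Within slide 2, 1 array of day 3 stood against 3 of day 8 from other cultures, with a median of -2.25. Of 198 members, 195 and 196 were lower at day 8, but the rule had chosen them for this direction and nothing is read from it. With slide as a term in the fit the median was -1.89.

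Between days 15 and 21 the direction of a change was not used by the rule, and it was tested with limma over all probes. Its size was limited by the rule, which used the highest later value and held the mean of both days near day 8. Nothing is therefore read from differences between the members and all probes in the counts below. The methods of the study used p below 0.02 and a fold change above 3 over the days, and these limits were applied here to the adjusted p and the ratio of days 21 and 15. No member passed them, and 0% of all tested probes did. At an unadjusted p below 0.05, 5 of 198 members were higher at day 21, where the share among all tested probes was 1.47%, and 1 was lower, where the share was 2%. With culture as a block (paired fit) 8 were higher and 7 lower, beside 2.7% and 4.64% of all probes. These counts are small. When only probes measured on all arrays were tested, 2 of 124 members were higher, beside 546 of 35803 probes. In that setting 0 members were lower, beside 601 probes. Whether the members differ from all probes in these shares was not tested.

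In the fit without a block, 5 members were higher at day 21 at the unadjusted level. Of these, 3 were higher in 4 of 4 cultures, and these 3 were dim. CR372361 was at -5.10, -6.95, -5.60 and -6.41 at day 15 in cultures 4, 8, 9 and 10 and at -5.01, -5.86, -3.22 and -3.28 at day 21, higher by 1.67 (limma, standard error 0.68, adjusted p = 0.9999). F0DLFKL01CDHFO rose from -7.40, -7.57, -7.67 and -6.77 to -4.67, -6.25, -6.35 and -5.98, but its difference of 1.54 (standard error 0.58) did not pass the correction either. TC98525 differed by 0.86 (standard error 0.32). At day 15 they were below the limit on 4 of 4 arrays, and at day 21 they passed it on 2, 1 and 1 arrays. TC127846, lower at day 21 in 4 of 4 cultures by -1.12 (standard error 0.39, adjusted p = 0.9999 from limma), was below background on both days. The other members higher in this fit, TC121441 and TC114981, were measured on all arrays, and both were higher in 3 of 4 cultures. In the paired fit 8 members were higher and 7 lower at the unadjusted level. Among the 8 was F0DLFKL01BLK8D, measured on all arrays and higher in 4 of 4 cultures by 0.94. It had an unadjusted p of 0.0146 and an adjusted p of 0.631 (limma, culture as a block). It was singled out after its values were seen.

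**Figure D4:**
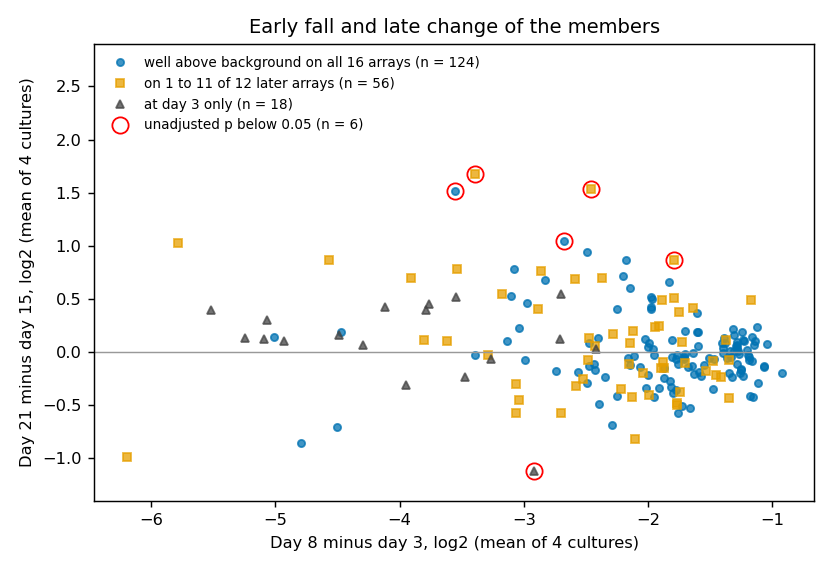
Change from day 15 to day 21 (vertical axis, log2) against the change from day 3 to day 8 (horizontal axis, log2) for the 198 tested members, each the mean of 4 cultures, with colours and shapes for the 3 groups and red circles for an unadjusted p below 0.05. The 198 points scatter about 0 on the vertical axis over the whole range of early falls, and 6 of them are circled.

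The rule compares days within a culture, so the level of a culture over all days was not used by it. However, it ranked by the lowest score over the cultures, which can favour probes with a like course in all of them. The test below measures culture levels against the spread around that course. Its share of members is thus not independent of the rule, and nothing is read from the difference to all probes. In a limma fit with day in the model, 40 of 198 members (20.2%) differed between the 4 cultures at an adjusted p below 0.02, where 10.8% of all tested probes did. Culture 4 was the highest in 21 of the 40 and the lowest in 13, and over all 4602 probes that differed it was the highest in 1884 and the lowest in 1655. Between the highest and the lowest culture these members differed by a median ratio of 2.96, against 2.56 over all 4602 probes, and by 1.77 to 6.87 in single members. The number rests largely on culture 4, as 6 members were called without it, 20 without culture 8, 29 without culture 9 and 38 without culture 10. The number over all probes moved in a like way, to 518 without culture 4, 1459 without culture 8, 2384 without culture 9 and 4658 without culture 10. Whether the members differ from all probes in this respect was not tested.

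Among the 40, TC124036 had the largest ratio between cultures, 6.87 (adjusted p = 0.000904 from limma), with means over the 4 days of 1.14 in culture 4, -1.04 in culture 8, -1.64 in culture 9 and -1.50 in culture 10. F3GS49K02GBC5Z had the smallest adjusted p and ran the other way, with -0.44 in culture 4 and 1.59, 1.76 and 1.23 in cultures 8, 9 and 10. Both were singled out after their values were seen. Members of higher rank among the 40 included TC118715, highest in culture 10, and FZNWKMO01BPZWP, F0DLFKL01C8OM5, F0DLFKL01CB8CM and TC128215, highest in culture 4. The 40 also hold 3 members seen at day 3 alone, X81488, X81501 and TC107704, whose means over the 4 days rest on 12 later arrays that were not well above background.

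**Figure D5:**
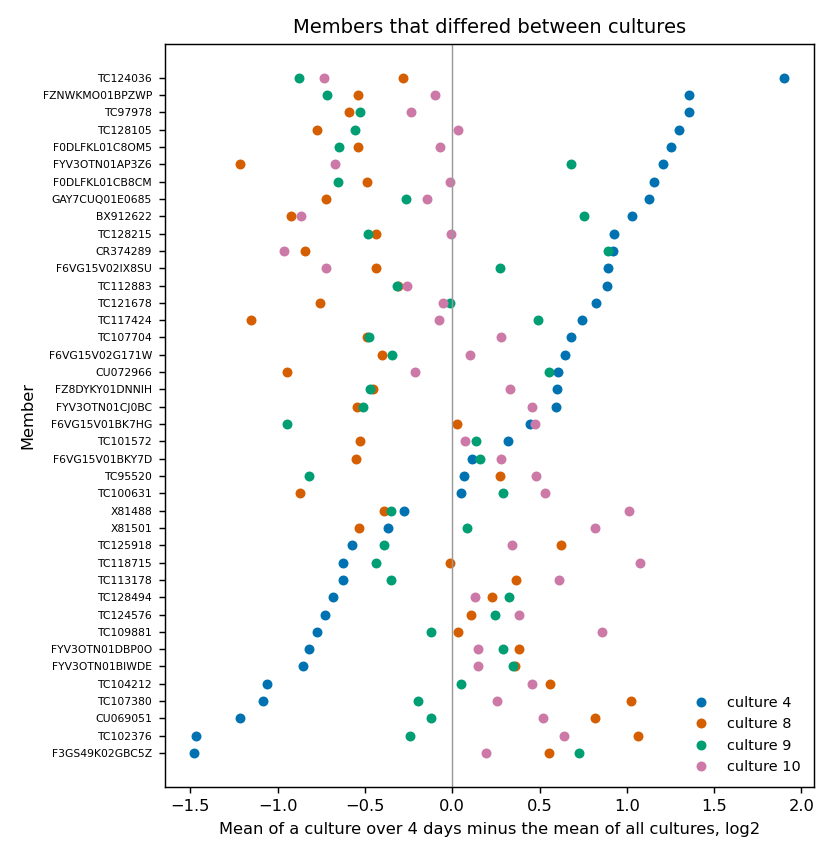
Mean of each culture over its 4 days minus the mean of all 4 cultures (horizontal axis, log2) for the 40 members that differed between cultures (vertical axis, ordered by culture 4). Culture 4 lies at one end in most rows, as the highest culture in 21 members and the lowest in 13.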

How the data were processed

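RNA from 4 cultures at 4 days was measured on 16 one-colour Agilent arrays. The authors extracted the Cy3 intensity of each spot with Agilent Feature Extraction 10.7.3.1, with background subtraction, and deposited these signals. Log2 values normalized in GeneSpring were deposited by the authors too, which differ from the log2 processed signals by 1 constant per array (to within 0.001 for 100% of the probes), with equal medians of 6.77. The rule was applied to these values. All value columns were matched to samples.

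For tests, outlier spots were left out, spots of a probe were averaged as log2, and the 75th percentile of each array was subtracted. Of 60195 probes, 1050 lacked a value on an array. The 42541 probes with complete values that passed the background limit on each array of at least 1 day entered limma 3.58.1 (R 4.3.3), with 1 mean per day, and with Benjamini-Hochberg adjustment over all of them. The methods of the study give no block, so culture is a block in an alternative. Culture differences were tested with day in the model. Other steps used Python 3.11.15, numpy 2.4.6, pandas 2.3.3 and matplotlib 3.10.9. The fits were tested on simulated data.

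Cells of one culture come from 1 pool of fish, so the culture numbers pair the samples. Across probes, the deviations of 2 arrays of a culture from their day means correlated at 0.48 to 0.70 between days 15 and 21 and at -0.14 to 0.39 between days 3 and 8. Precision is limited by the number of arrays.

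Named were the 10 members of highest score, the 10 of highest score among those measured on all arrays, the 3 on each side of the limit, and up to 5 in each direction that changed between days 15 and 21 in every culture at an unadjusted p below 0.05. Others are marked as chosen later. The members and lists were chosen with earlier results of these data known. Alternatives were quantile normalization, another percentile, normexp background correction with an offset of 50, the deposited values, other filters on dim probes, culture or slide as a block, other limits in the rule and leaving out each culture. Probe sequences were not used here.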

Additional observations from a re-analysis of the deposited data

Results flagged for a closer look

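In 99 groups of 4 values, for the named members on each day and for the median changes of the members, the gap between an extreme value and its nearest neighbour was divided by the whole range (Dixon's ratio). Chance gives about 1 in 20 such groups, and 1 group lay past the 95% critical value. At day 8 F0DLFKL01CDHFO had a level of -4.52 in culture 4, where cultures 8, 9 and 10 lay between -7.61 and -7.20, which gives a ratio of 0.866. It was the only array of that day on which this probe was well above background, and the only array of day 8 on slide 1. Culture 4 was also the highest at day 3 and at day 21, but not at day 15.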

How the results depend on the processing

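The fits with slide as a block in the fall to day 8, and with slide added to the culture block, were chosen after seeing the data. Of 87 alternative values, 59 stayed close to the reported ones (changes by less than the SD between cultures, counts by less than 1.5 times). The median fall to day 8 kept its direction throughout, but the rule had chosen the members for that direction and nothing is read from it.

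The list itself depended on the settings of the rule. Of the 200 members, 106 were found again with a limit of 0.25 between day 8 and the later days, 113 with a limit of 1, and 128 with the mean score in place of the minimum. Without one culture, 86 (culture 10) to 139 (culture 8) were found again. Under normexp background correction, whose offset shrinks the ratios of dim probes, the median fall to day 8 was -1.25. The later change was then 0.052 and the change from day 15 to day 21 0.13, so both small later changes had the other sign. The change from day 15 to day 21 was also above 0 with quantile normalization (0.022) and on the deposited values (0.0064). Among members measured on all arrays the fall was -1.73. Leaving out cultures gave falls of -2.001 to -1.86, later changes of -0.27 to -0.13 and changes after day 15 of -0.04 to 0.04.

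At an unadjusted p below 0.05 between days 15 and 21, 2 members were higher and 0 lower when only probes measured on all arrays were tested. With culture as a replicate block (paired fit) the counts were 8 and 7, and with slide added 9 and 7. Over all tested probes these 3 settings gave 546 and 601 of 35803, 1149 and 1972 of 42541, and 1108 and 2092 of 42541. The number of lower members was 2 with the percentile over detected probes, 2 on the deposited values and 0 with normexp. Beside these stood 945 of 42541, 633 of 43168 and 246 of 42541 probes. Without one culture, 2 (culture 9) to 9 (culture 4) were higher, with 3 without culture 8, and 0 (culture 8) to 2 (cultures 4, 9 and 10) were lower. Of the 42541 probes, 266 (culture 9) to 871 (culture 4) were higher and 493 (culture 9) to 1259 (culture 4) lower in these fits. The count of 0 called members held in every setting run, with limma in all of them. Without the filter on dim probes 23 of 198 members differed between cultures, beside 3098 of 59145 probes. Without one culture 6 to 38 members did, beside 518 to 4658 of 42541 probes. Where no cause is named, the cause was not tested. No probe outside the list shared an identifier with a member, so the planned comparison of other probes of the same transcripts could not be run. Levels near the background limit the falls of the 74 members that were dim on a later array.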
